A study of Boehmeria nivea with 10 samples.

Results

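Roots that ramie (Boehmeria nivea) formed in water were compared with roots it formed in soil, both taken at a stated seedling age of 30 days. There were 3 libraries of the late stage of aquatic root formation, called late hydroponic here, and 3 of terrestrial roots, together 6 of the 10 samples of the series. They were taken by their labels, so no measured value chose them. The labels give the growth medium, the tissue and the seedling age, and no cultivar, nutrient solution, aeration or treatment. The late hydroponic and terrestrial groups share the plant, the tissue and the stated age, and neither group differs from the other in any labelled factor but the medium. The labels describe no repeat of either growth setting, so whatever else differed between the settings cannot be told apart from the medium. No label states that the libraries of a group are separate plants or cultures. The p-values therefore measure the spread between these samples only, part of which may be technical.

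Ramie is a perennial of the nettle family grown for the bast fibres of its stem, and it is propagated from cuttings that form new roots. Roots in still water meet less oxygen and less mechanical resistance than roots in soil, and water roots of many plants form air spaces in the cortex, few root hairs and a different balance of water and ion uptake. A comparison at 1 age asks which transcripts go with the medium rather than with the age of the seedling. The transcripts are contigs of a de novo assembly, stretches of sequence joined from reads without a genome. The tables pair no contig with a gene name, so the results are given by level, length, presence and cluster, with 4 contigs named by their identifiers.

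The listed expected counts, which are estimated reads per contig, summed to between 9499903 and 10328909 in the late hydroponic libraries and to between 10473340 and 10702907 in the terrestrial ones. Levels are in FPKM, expected counts scaled to the length of the contig and the size of the library. The 6 tables named 39225 contigs, 28437 of them in all 6. Across contigs, log2 levels correlated at 0.925 to 0.946 between late hydroponic libraries, at 0.936 to 0.961 between terrestrial libraries and at 0.713 to 0.762 between the groups. The first principal component held 73.5% of the variance and separated the groups without overlap. Late hydroponic replicate 3 and terrestrial replicate 2 lay farthest from the other libraries of their groups. Late replicate 3 deviated most from its group's mean in 40.7% of the contigs tested, and terrestrial replicate 2 in 49.6%.

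About as many contigs were higher in water as in soil, and over all levels together the median change was larger for the higher ones. Of 25469 contigs with enough counts to be tested, 12593 were called changed, 49.4% of those tested. The call rests on edgeR's quasi-likelihood test with an adjusted p under 0.05. In late hydroponic roots 6460 contigs were higher (25.4%) and 6133 were lower (24.1%). A change of 2-fold or more was fitted for 4764 of the higher contigs (18.7% of those tested) and for 4073 of the lower ones (16%). Changes of 4-fold or more numbered 2584 higher and 1442 lower, those of 16-fold or more 780 and 382, and those of 64-fold or more 299 and 153. The called contigs included 132 higher and 101 lower ones with counts in every library of 1 group and none in the other. Their fitted changes can be large but are not measured ratios, since 1 of the levels was 0. Higher contigs had a median log2 change of 1.61, with quartiles of 0.97 and 2.81. Lower contigs had a median of -1.28, with quartiles of -1.93 and -0.86, and the median over all contigs tested was -0.03.

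The balance of directions varied with the scaling. Higher contigs made up 51.3% of the calls with TMM scaling, 47.9% with library totals alone, 47.8% with upper quartile scaling and 53% with DESeq2's size factors. The excess of higher contigs among changes of 2-fold or more held with library totals alone by a small margin (4478 higher and 4389 lower) and with upper quartile scaling (4508 and 4442), and it turned with limma on log2(FPKM + 0.1), at 4447 higher and 4521 lower. A fit that also held the early hydroponic libraries called 7685 contigs higher and 6475 lower.

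**Figure D1:**
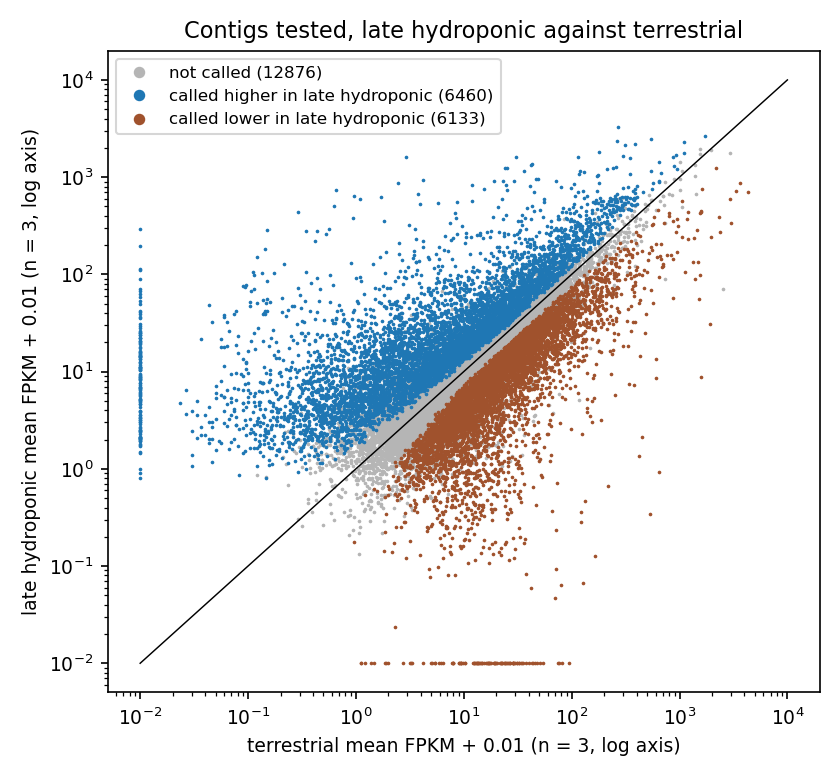
Each point is 1 of the 25469 contigs tested, with the mean FPKM of the 3 terrestrial libraries on the horizontal axis and that of the 3 late hydroponic libraries on the vertical axis, both on log axes with 0.01 added. Blue points are the 6460 contigs called higher and brown points the 6133 called lower in late hydroponic roots, grey points were not called, and the line marks equal levels.

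In most contigs the libraries of the 2 media did not overlap. In 16054 of the contigs tested, 63.0%, every library of 1 group lay above every library of the other after TMM scaling, with late hydroponic roots above in 7937 and below in 8117. The test called 12546 of these. It called 47 of the 9415 contigs whose groups overlapped. The count without overlap is read beside the 49.4% of contigs called.

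Calls made without a pair of libraries held in that pair. When 1 late hydroponic and 1 terrestrial library were left out and the fit was repeated on the other 4, between 5427 and 11343 contigs were called over the 9 possible pairs. The left-out late library lay on the called side of the left-out terrestrial library in 94.0 to 98.7% of them, with a median of 98.3%. Over all contigs tested, the left-out late library lay above the left-out terrestrial one in 50.3 to 51.4%. The lowest share was found when late replicate 3 and terrestrial replicate 2 were the pair left out, in which case 95.8% of the higher and 92.0% of the lower contigs kept their side. The 9 pairs share libraries and are not independent.

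For most contigs that were not called, the data left room for a change. Of the 12876 contigs not called, 7344 (57.0%) had a 95% interval of the change that reached 2-fold in either direction. In 1940 contigs, 7.62% of those tested, the interval lay wholly within 1.5-fold, and the median level of these was 22.7 FPKM. At the other end, the interval lay wholly beyond 2-fold in 2818 higher and 1820 lower contigs. These include contigs with counts of 0 in a whole group, whose intervals are narrower than their test allows.

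The 100 highest contigs differed more between the media than between libraries of 1 medium. The lists of the 100 highest contigs by FPKM shared 67 to 73 contigs between any 2 late hydroponic libraries and 77 to 90 between any 2 terrestrial libraries. A late hydroponic and a terrestrial library shared 28 to 38, with a mean of 33.1 over the 9 pairs, so the between-group values did not overlap with the within-group ones. With lists of 1000 contigs, 49.8 to 57.5% were shared between the groups and 82.3 to 92% within them.

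**Figure D2:**
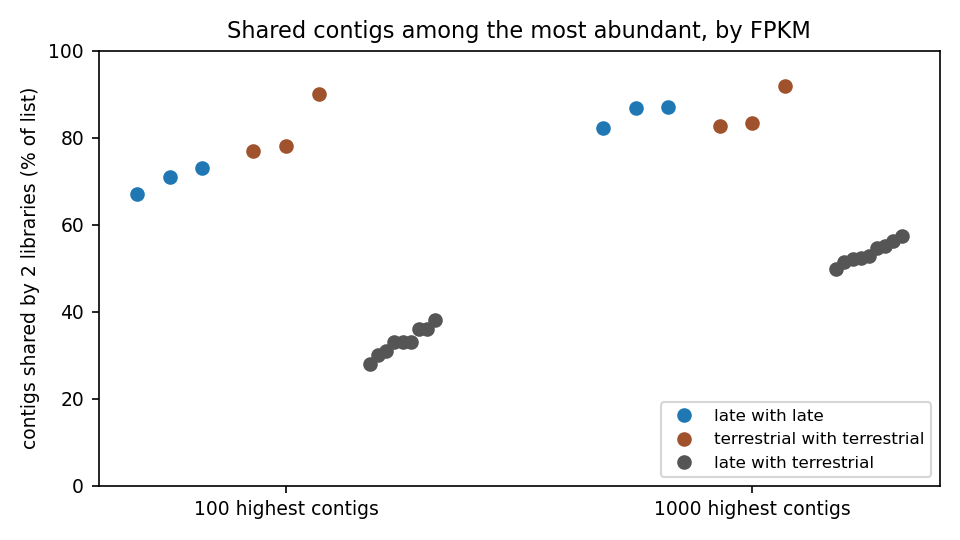
Points show the share of the 100 or 1000 highest contigs by FPKM that 2 libraries have in common, in percent of the list, for the 3 pairs of late hydroponic libraries, the 3 pairs of terrestrial libraries and the 9 pairs across the groups. The pairs across the groups lie at 28 to 38% for 100 contigs and at 49.8 to 57.5% for 1000, below every pair within a group.

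Of the 100 contigs with the highest mean FPKM in late hydroponic roots, 77 were called higher and 5 lower there than in terrestrial roots. Their median was 919.2 FPKM in water and 304.7 FPKM in soil. Of the 100 highest in terrestrial roots, 60 were called lower and 14 higher in water, with a median of 907.5 FPKM in soil and 410.5 FPKM in water. A contig picked for a high level in 1 group tends to lie above the other group, so these counts describe the lists, and they stand beside the 25.4% and 24.1% of all tested contigs called higher and lower. The groups' lists had 36 contigs in common. Of the water list, 72 were among the 1000 highest in soil and 16 ranked below 5000 there, while 83 of the soil list were among the 1000 highest in water and 4 ranked below 5000.

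The named contigs are those with the largest difference in mean FPKM among the contigs called with a change of 2-fold or more, no overlap between groups, a value above 0 in every library and at least 1 FPKM in the lower group. This rule was met by 3453 higher and 3474 lower contigs, and the first 2 in each direction were named. It uses the measured difference, so the values below describe these contigs and do not add evidence for the comparison.

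CL1699.Contig2_mixA, of 1201 bases, had the highest mean FPKM of all contigs in late hydroponic roots. It did not have the highest FPKM in late replicate 1 or in late replicate 2. It stood at 2797.9, 2122.8 and 4823.39 FPKM in late hydroponic replicates 1, 2 and 3 and at 97.76, 487.96 and 217.69 FPKM in the terrestrial ones. All 3 water libraries were several times above the highest soil library, and both groups were uneven within themselves. Its log2 change was 3.67 ± 0.7 (SE), with a 95% interval of 1.99 to 5.35 and adjusted p = 0.00658 by edgeR's quasi-likelihood test, and it ranked 273 in terrestrial roots. Its reads were shared with other contigs, since its expected count was whole in 0 of 6 libraries, and the other contig of its cluster was called higher too. It held 78.2 to 82.6% of the cluster's counts in every library, and the summed cluster changed by 3.74 with adjusted p = 0.00434 in edgeR's test.

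CL735.Contig7_mixA, of 1062 bases, ranked 4 by mean FPKM in late hydroponic and 280 in terrestrial roots. It stood at 3685.32, 1650.35 and 1725.79 FPKM in the late hydroponic replicates and at 195.9, 239.18 and 357.34 FPKM in the terrestrial ones. Late replicate 1 was high among the water libraries, and the lowest of them was still above every soil library. The log2 change was 3.24 ± 0.43 (SE), with a 95% interval of 2.21 to 4.27 and adjusted p = 0.00201 by edgeR's quasi-likelihood test. The cluster of this contig held 7 contigs, and all 6 others were tested and called higher. The contigs of the cluster summed to 9679.4, 6452.0 and 5340.0 FPKM in the late hydroponic libraries and to 625.2, 668.5 and 941.2 FPKM in the terrestrial ones. How reads were divided among these contigs was set by the authors' counting, and the summed cluster changed by 3.36 on the log2 scale.

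Unigene28156_mixA, of 1680 bases, had the highest mean FPKM of all contigs in terrestrial roots, though not the highest FPKM in terrestrial replicate 2. Its level was 4169.53, 5053.83 and 3711.69 FPKM in terrestrial replicates 1, 2 and 3 and 795.02, 727.03 and 576.32 FPKM in the late hydroponic ones. It took 0.626 to 0.853% of all counts in soil and 0.0974 to 0.134% in water, and it still ranked 83 there. The log2 change was -2.56 ± 0.22 (SE), with a 95% interval of -3.10 to -2.03 and adjusted p = 0.000705 by edgeR's quasi-likelihood test. With whole expected counts in 0 of 6 libraries, it too shared reads with other contigs.

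Unigene29634_mixA, of 1862 bases, ranked 2 in terrestrial and 58 in late hydroponic roots. Its level was 2996.14, 5371.78 and 2622.88 FPKM in the terrestrial replicates and 814.74, 978.48 and 830.03 FPKM in the late hydroponic ones. Terrestrial replicate 2 was well above the other soil libraries, and the water libraries lay close together. The log2 change was -2.01 ± 0.32 (SE), with adjusted p = 0.00346 by edgeR's quasi-likelihood test, and -1.58 without terrestrial replicate 2. Its counts were whole in 6 of 6 libraries.

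**Figure D3:**
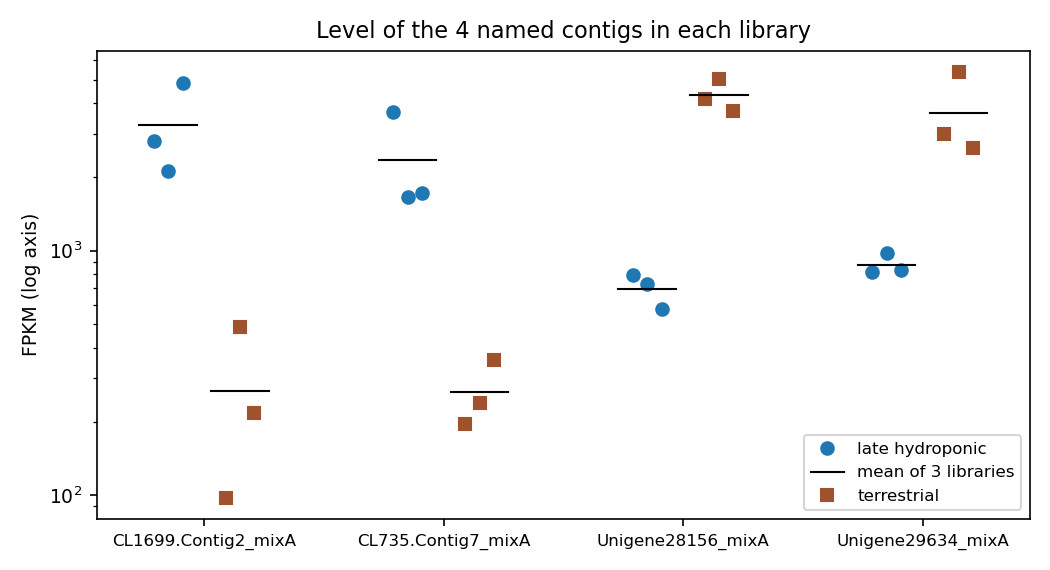
Points are the FPKM of the 4 named contigs in each of the 3 late hydroponic and 3 terrestrial libraries, on a log axis, and the lines are the group means. CL1699.Contig2_mixA and CL735.Contig7_mixA lie at 1650.35 FPKM or more in every water library and at 487.96 FPKM or less in every soil library, while Unigene28156_mixA and Unigene29634_mixA lie at 2622.88 FPKM or more in every soil library and at 978.48 FPKM or less in every water library.

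Differences of this size were few. Among the contigs that met the naming rule, the group means differed by 1000 FPKM or more in 20 higher and 21 lower contigs, by 100 FPKM or more in 416 and 258, and by 10 FPKM or more in 2275 and 1975. The 100 largest differences made up 37.7% of the summed difference of the higher contigs and 45.9% of that of the lower ones.

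From 1 FPKM upward, abundant contigs were called in a larger share than scarce ones. Contigs were sorted by the mean of the 2 group means. The share called was 37.4% at 1 to 5 FPKM, 47.8% at 5 to 20, 60.4% at 20 to 100, 74.7% at 100 to 500 and 75.9% at 500 FPKM or more. The 206 tested contigs under 1 FPKM stood outside this order, with 40.8% called. More reads give a narrower interval, so this order does not show that abundant contigs changed more. The median log2 change of the higher contigs was 2.47 at 1 to 5 FPKM, 1.16 at 20 to 100, 1.34 at 100 to 500 and 2.28 at 500 or more. That of the lower contigs was -1.6, -1.04, -1.46 and -2.2 in the same classes. The lower contigs thus had the larger median change at 100 to 500 FPKM. Under 1 FPKM the medians were 3.38 and -7.19, with 11 lower contigs. Levels there are near 0, so the sizes of these 2 medians are not compared. Higher contigs outnumbered lower ones at 100 to 500 FPKM, with 543 against 283, and lower ones outnumbered higher ones at 5 to 20 FPKM, with 2910 against 2445.

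Long contigs that were called were mostly lower in water. Of 605 tested contigs of 4000 bases or more, 260 were called lower (43%) and 62 higher (10.2%), beside 24.1% and 25.4% of all contigs tested. Higher contigs made up 19.3% of the calls in this class, 47.4% at 2000 to 4000 bases, 60.1% at 1000 to 2000, 56.3% at 500 to 1000 and 36.5% under 500 bases. The median log2 change of the lower contigs of 4000 bases or more was -0.80, smaller than the -1.92 of those under 500 bases. Over 23 other settings of the fit, the share of higher contigs among the calls stayed between 17 and 28.9% in the longest class. The highest was the test against a 1.5-fold change. The check of the length classes over these settings was chosen after seeing the data. The share ran from 43.1 to 54.4% at 2000 to 4000 bases, on both sides of even. It ran from 55.6 to 66.8% at 1000 to 2000, from 52.1 to 62.9% at 500 to 1000 and, over 22 settings, from 33 to 49.6% under 500 bases. In the longest class it was 15.7% for contigs at 5 to 20 FPKM, 12.9% at 20 to 100, but 54.5% at 1 to 5 FPKM, where 18 contigs were called higher and 15 lower.

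**Figure D4:**
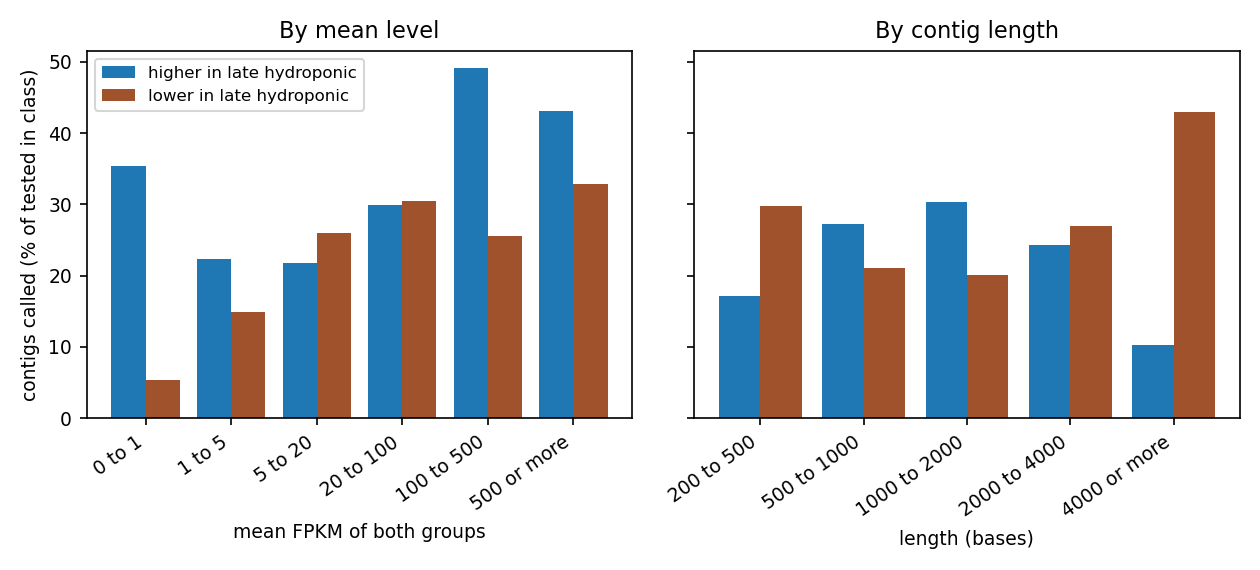
Bars give the share of the contigs tested in each class that were called higher (blue) or lower (brown) in late hydroponic roots, by the mean FPKM of both groups on the left and by contig length on the right, with upper bounds not included. Among contigs of 4000 bases or more, 43% were lower and 10.2% higher, while at 1000 to 2000 bases 20.1% were lower and 30.3% higher.

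The same difference was present in the libraries' counts before any call. Contigs of 4000 bases or more took 7.5, 6.29 and 5.69% of all counts in late hydroponic replicates 1, 2 and 3 and 8.9, 8.9 and 8.64% in the terrestrial ones, a mean of 6.49 ± 0.926% against 8.81 ± 0.149% (SD, n = 3, exact two-sided permutation p = 0.1). Contigs of 2000 to 4000 bases took 31.6 ± 0.316% against 33.6 ± 0.596%, those of 1000 to 2000 bases 43.3 ± 1.37% against 41.4 ± 0.508%, and those of 500 to 1000 bases 14.8 ± 0.186% against 12.8 ± 0.166%. Contigs under 500 bases, which were more often called lower, took a larger share of the counts in water, 3.72 ± 0.177% against 3.37 ± 0.104%. Of the contigs under 500 bases at 100 FPKM or more, 80 were called higher and 33 lower. At 5 to 20 FPKM 395 were higher and 849 lower, and lower ones also led at 1 to 5 and at 20 to 100 FPKM. In all 5 classes the groups did not overlap, and each exact two-sided permutation p was 0.1, the smallest that 3 against 3 libraries can give, which Benjamini-Hochberg adjustment over the 5 classes leaves at 0.1. The shares of 1 library sum to its whole, so the classes are not independent. The mean contig length weighted by counts was 1964 to 2084 bases in late hydroponic and 2180 to 2203 bases in terrestrial libraries. No measure of RNA integrity was in the sources used here, and its part in the length difference was not tested.

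**Figure D5:**
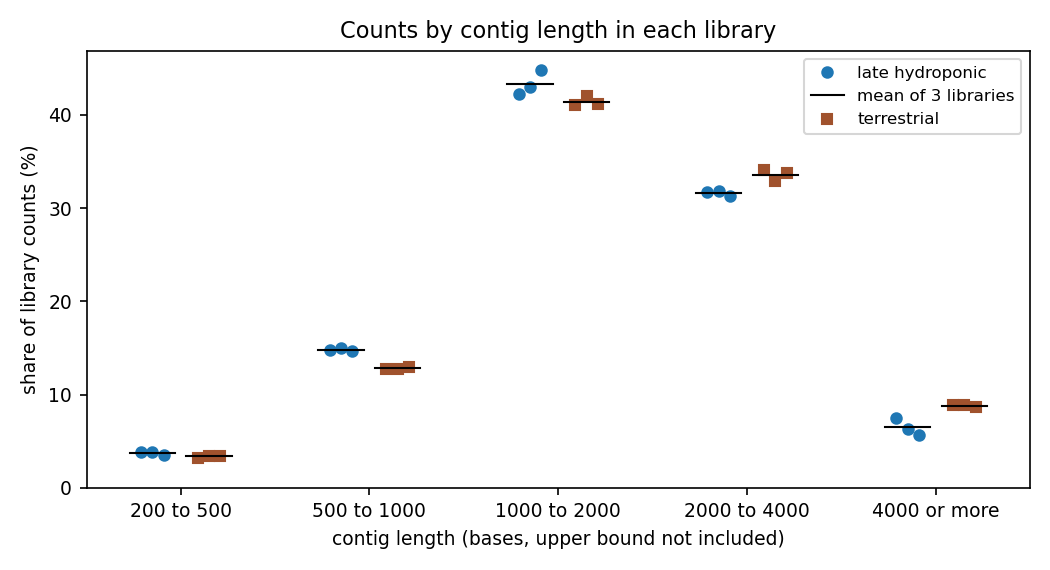
Points are the share of each library's counts that falls on contigs of a length class, in percent, for the 3 late hydroponic (blue) and 3 terrestrial (brown) libraries, and lines are group means. Contigs of 4000 bases or more lie at 5.69 to 7.5% in water and 8.64 to 8.9% in soil, and contigs of 500 to 1000 bases lie higher in water than in soil.

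Every water library listed more contigs than any soil library. Late hydroponic libraries listed 34891, 34977 and 35313 contigs and terrestrial ones 33879, 33480 and 33974, although the terrestrial libraries were deeper. Contigs at 100 FPKM or more numbered 1250, 1287 and 1273 in water and 1080, 1093 and 1113 in soil, again with no overlap (exact two-sided permutation p = 0.1 for both measures). Contigs at 10 FPKM or more overlapped, at 11694 to 12527 in water and 12198 to 12838 in soil. The share of the counts in the 100 most abundant contigs overlapped between the media, and that in the 10 most abundant did not. The 100 most abundant contigs took 14.6, 12.8 and 15.4% of the counts in the late hydroponic libraries and 15, 17 and 14.2% in the terrestrial ones (exact two-sided permutation p = 0.5), a difference of the means, late minus terrestrial, of -1.12 percentage points. The 10 most abundant took 2.47 to 3.89% in water and 4.3 to 5.75% in soil (exact two-sided permutation p = 0.1).

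Some contigs were listed in 1 medium alone. A total of 587 contigs had counts in all 3 late hydroponic libraries, at least 10 in sum, and none in the terrestrial ones, and 269 contigs had the reverse pattern. The tables do not state that an unlisted contig had no reads, which is inferred here. The contigs found in water alone had a median of 32 summed counts and 2.96 FPKM, and 120 of them reached 10 FPKM. A floor of 3 counts over the 3 soil libraries is the limit that a count of 0 allows for counting error in a contig fixed beforehand. Set against this floor, their level was 11.4-fold higher at the median and 917.8-fold higher for the most abundant one. The contigs of both lists were picked for their counts of 0, so these folds describe them and are no lower bounds. The contigs found in soil alone had a median of 65 summed counts and 6.74 FPKM, and 99 of them reached 10 FPKM. Their level was 20.3-fold higher at the median against the same floor over the water libraries. The median lengths were 319 bases for the contigs found in water alone and 291 bases for those found in soil alone, and both lists also held contigs of over 1000 bases. They were a small part of the RNA, 0.162% of the late hydroponic and 0.118% of the terrestrial counts. Only 132 and 101 of them had enough counts to be tested.

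The number of contigs found in soil alone depended on late hydroponic replicate 3. Without that library it was 726 in place of 269, and without late replicate 1 or 2 it was 353 or 366. In all, 457 contigs had counts in every terrestrial library and in late replicate 3 but none in the other late libraries, against 84 for late replicate 1 and 97 for late replicate 2. Their median level was 1.47 FPKM in late replicate 3 and 9.1 FPKM in terrestrial roots, and the ratio per contig had a median of 16.9% with quartiles of 9.7 and 31.3%. Of the 279 of them that were tested, 200 were called lower in water. They were picked for having no counts in the other late libraries, which favours that call, so the number describes the list. Late replicate 3 also lay at least 4-fold above both other late libraries in 274 contigs, of which 114 were called lower and 15 higher. It lay at least 4-fold below both in 224. Among all contigs tested, 24.1% were called lower and 25.4% higher. What sets late replicate 3 apart was not tested. The reverse pattern was even among the soil libraries, at 179, 157 and 222 contigs for terrestrial replicates 1, 2 and 3, with medians of 1 to 1.5 counts there. Levels were uneven in both groups. The contigs found in soil alone summed to 3871.3, 1198.8 and 4203.5 FPKM in terrestrial replicates 1, 2 and 3. Those found in water alone summed to 4701.9, 7639.3 and 2136.9 FPKM in the late replicates. Terrestrial replicate 2 lay at least 4-fold below both other soil libraries in 349 contigs and above both in 98.

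A smaller set was off in 1 medium and well expressed in the other. In 102 contigs every terrestrial library was under 1 FPKM and every late hydroponic library above 10, and 44 contigs showed the reverse. The choice by level makes a call near certain, and all of them were called. The 102 contigs summed to 6107.6, 7747.1 and 5444.2 FPKM in late hydroponic replicates 1, 2 and 3, and to 30.1 to 32.1 FPKM in the terrestrial libraries, with a median of 39.1 FPKM per contig where on. The 44 contigs summed to 2005.7 to 2715.0 FPKM in soil and to 4.51 to 11.7 FPKM in water, with a median of 30 FPKM where on. Every library above 100 FPKM in 1 group and under 1 in the other was found for 3 contigs on in water and 2 on in soil.

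Within assembly clusters, the leading contig was mostly the same in both media. A cluster groups contigs of similar sequence, such as alleles, splice variants or near copies of a gene. Of 2669 clusters with at least 2 tested contigs, 1559 had 1 contig with the highest FPKM in all 3 late hydroponic libraries and 1 in all 3 terrestrial libraries. The leading contig differed between the media in 110 of these, 7.06%. At the median of the 110, the water leader held 65.9% of the summed FPKM of both leaders in water and 33.4% in soil. The choice of leaders puts the water leader above the soil leader in water and below it in soil. Only the size of these shares is therefore informative. In 16 of them the water leader was called higher and the soil leader lower. In 46 only the water leader was called, as higher, and in 24 only the soil leader, as lower. Both leaders were called higher in 11 and lower in 5, and neither was called in 8. Picking leaders by their levels favours these directions, so the counts describe the list. Of all contigs tested, 25.4% were called higher and 24.1% lower. In 10 clusters the share of the water leader went from under 25% in soil to over 75% in water. Both leaders had whole counts in 12 of the 110, so in nearly all of them the division of shared reads enters the result. With a leader at least 1.5 times above the next contig in every library, 21 of 904 clusters differed.

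Contigs in clusters were called less often than the others. Of the 7151 clustered contigs tested, 42.6% were called, and of the 18318 without a cluster number 52.1%. Contigs with whole counts in all 6 libraries, as reads that match 1 contig alone give, were called in 52.1% and the others in 44.5%. The median log2 change of the higher contigs was 1.58 with whole counts and 1.69 with shared reads, and that of the lower ones -1.32 and -1.20, so the sizes were close in both kinds.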

How the data were processed

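Per the labels' protocols, ramie roots were frozen and their RNA isolated with Trizol. Per the series' design text, contigs were assembled de novo from a pool and each sample was quantified on a BGISEQ500 instrument. The aligner, counting program, versions and strandedness are not given in the sources used here. Per the file headers, the authors' deposited tables give a length, an expected count, which need not be whole, and an FPKM value for each listed contig. Between 74.7 and 75.4% of the listed counts were whole within 0.005. Unlisted contigs entered as 0.

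The 3 late hydroponic and 3 terrestrial tables (9499903 to 10702907 counts each) were joined on the contig identifier, and the pool and the early hydroponic samples stayed out of the main fit. Rounded counts were analysed in R 4.3.3 with edgeR 4.0.16, using TMM factors, filterByExpr with a minimum count of 10, robust quasi-likelihood dispersions, 4 residual degrees of freedom, no covariate, and Benjamini-Hochberg adjustment over the 25469 contigs tested. A standard error (SE) is the size of the log2 change over the root of its F statistic, so it and the 95% intervals restate the test. Contigs with counts of 0 in a whole group are an exception. Their p-values are larger than their intervals imply, so these intervals are too narrow. Correlations used log2 CPM with a prior count of 2. Values per library were compared by exact permutation tests in SciPy 1.17.1. Floors cover counting error only. The tests were checked on simulated data. Alternatives included DESeq2 1.42.0, limma 3.58.1 on log2(FPKM + 1), other scalings and filters, and leaving out each library. No library was a copy of another, with a chi-square per degree of freedom of at least 8.0 between replicates. Terrestrial replicates 1 and 3 gave the 8.0 and were the closest pair, while the other pairs within a group lay at 22.4 to 36.4. The comparison, rules and lists were chosen with earlier results of these data known. The contigs carry no gene names, so no gene list was tested.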

Additional observations from a re-analysis of the deposited data

How the results depend on the processing

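Of 12593 contigs called, 7743 were called by a test against a 1.5-fold change, with 3391 lower, and 7239 at an adjusted p under 0.01, with 4068 higher, 3171 lower and 2542 lower by 2-fold or more. That last count was 2628 with at least 50 counts in 3 libraries, where fewer contigs were tested. The other settings of the fit kept each count of calls within 1.5 times, and no contig called both there and in the main analysis changed direction. Without each library in turn, 9504 to 11260 contigs were called. No filter on low counts moved the median change of all contigs from -0.03 to 0.12. Contigs listed in water alone numbered 896 with no minimum, 217 with at least 50 counts and 1046 when 1 count per soil library was allowed, and 472 to 809 without each library in turn. Those in soil alone numbered 152 with at least 50 counts and 497 with 1 count per water library allowed, 242 to 726 without each library in turn, and 725 without late replicate 3 and terrestrial replicate 2 together. The difference in the share of counts, late minus terrestrial, was -1.12 points for 100 contigs and turned to 0.212 for 1000, with no test passed. The mean overlap of the highest contigs between groups was 33.1% for 100 by FPKM, 53.5% for 1000 and 36.4% by counts. Clusters with different leaders numbered 21 with the 1.5 margin and 195 without late replicate 3 and terrestrial replicate 2 together, where fewer libraries have to agree. For these shifts the cause was not tested beyond what each setting changes. Replicate numbers are shared by the groups but pair nothing in the labels, and the deviations of same-numbered libraries correlated at -0.094, 0.067 and 0.155. With a replicate block 10863 contigs were called, and not every library correlated best with its own number. All 4 named contigs kept their direction and call under every alternative in which they were tested. Depth limits the scarce contigs, since those without about 10 counts in 3 libraries were not tested.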
